A study of Arabidopsis thaliana with 12 samples.

Results

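The genes described here are 44 core genes of abscisic acid signalling and turnover in *Arabidopsis*, of the 26245 gene models in the deposited count table. They were chosen by locus from knowledge of the pathway, with earlier results of these data known. They are 13 PYR/PYL receptors, without *PYL10*, the 9 clade A protein phosphatases, the 10 SnRK2 kinases and the 5 ABF/ABI5 transcription factors. *NCED3*, the 4 *CYP707A* genes and the target genes *RAB18* and *RD29B* complete the set. All 44 were found in the table. RNA was sequenced from whole seedlings of 2 lines. One is *rve8-1*, called *rve8* here, and the other, called *RVE8:GR*, is *rve8-1 RVE8::RVE8:GR*, so that all 4 groups carry the *rve8-1* mutation. In *RVE8:GR*, the clock factor RVE8 is fused to the glucocorticoid receptor and driven by its own promoter, and dexamethasone (DEX) allows the fusion to enter the nucleus. Seedlings were 7 days old and were grown on medium with 3% sucrose in cycles of 12 hr light and 12 hr dark. They were moved at ZT4, 4 hr after lights on, to liquid medium with DEX or with the same volume of solvent (mock), and were harvested after 4 hr, at ZT8. Each of the 4 groups has 3 libraries, each from about 30 seedlings pooled. *rve8* carries no fusion protein, and its response to DEX is the control for DEX itself. Neither line was treated with abscisic acid.

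Abscisic acid is the plant hormone that slows water loss through stomata and restrains germination and seedling growth under drought, salt and cold. In its absence, the clade A phosphatases hold SnRK2 kinases inactive. When the hormone binds a PYR/PYL receptor, the receptor blocks the phosphatase, and the released kinases phosphorylate ABF/ABI5 factors, which bind the ABRE motif in promoters such as those of *RAB18* and *RD29B*. NCED3 catalyses the limiting step of the synthesis of the hormone under drought, and the CYP707A enzymes hydroxylate and so inactivate it.

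The libraries held 15975840 to 21713130 counts each. The least deep were those of *rve8* + mock, with 15975840 to 16722107. In CPM (counts scaled to the same library size), 3 counts in a library correspond to 0.138 to 0.188. *RVE8* itself, the gene disrupted in both lines and supplied by the transgene in one, was at 0.606 to 2.06 CPM in the 6 *rve8* libraries and at 5.19 to 9.76 CPM in the 6 *RVE8:GR* libraries, and those ranges do not overlap. The label of whole seedlings was checked with markers of leaf (4 genes), root (7), guard cells (5) and seed (8), none of which was at 0 in all libraries. Summed leaf markers were at 24815 to 34848 CPM, root markers at 1577 to 2245 CPM, guard cell markers at 75.7 to 104.7 CPM and seed markers at 43.2 to 500.02 CPM. Of the marker genes, *LHCB2.1* and *PHT1;1* share much sequence with other models, 22.7% and 41.9% of their 50-base stretches with the most similar one. *CAB3* and *NRT2.1* share less, 8.52% and 8.44%.

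Short motifs were looked up in the promoters of the members, taken as the 1500 bases before the start codon, on both strands, in the TAIR10.1 assembly (RefSeq). The ABRE, searched as ACGTGNC, is the motif that ABF/ABI5 factors bind. The G-box, CACGTG, can share letters with an ABRE, and the short evening element (EE), AAATATCT, is the motif that RVE8 binds. The ABRE was present in 20 of the 44 members (45.5%) and in 28.5% of the 23789 promoters of the table. The G-box was present in 17 members (38.6%) and in 21.1% of the promoters. Both motifs were present in 11 members, in 9 of which a G-box overlaps an ABRE, and in *PYL3* and *PYL7* they lie apart. Of the 24 G-box matches in the members, 11 overlap an ABRE. The EE was present in 22 members (50.0%) and in 20.6% of the promoters. These are matches of letters and were not tested as binding sites.

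Windows of up to 30 bases around 1 match of each gene are shown for the 8 members that differed in at least 1 comparison and for the target genes, so that the motif can be set beside the values given further on. For the 8 members, an EE is shown where there is one, otherwise an ABRE, and a G-box where there is neither. For the target genes an ABRE is shown, and other matches of these genes are left out. Each window is written 5′ to 3′ on the strand of its gene, and capitals mark the motif or its reverse complement.
*SNRK2.2*, EE, chr3:18743996-18744025, reverse strand: tatccttccttAGATATTTttctccttctt
*ABI1*, EE, chr4:13222923-13222952, reverse strand: aacaattatttAGATATTTtaccggtggtc
*CYP707A4*, EE, chr3:6677771-6677800, reverse strand: tatttcagtcaAGATATTTccgtataaaat
*HAB1*, ABRE, chr1:27389918-27389946, forward strand: caaagactaatACGTGTCcttttattaat
*SNRK2.8*, ABRE, chr1:29460311-29460339, reverse strand: tgacggatgagACGTGACattaataactt
*ABF3*, ABRE, chr4:16294638-16294666, forward strand: ttgagtgcgccACGTGGCaaatgaccatc
*CYP707A3*, ABRE, chr5:18371119-18371147, reverse strand: gcatgctcttgGACACGTgctctcgtcac
*PYL5*, G-box, chr5:1608563-1608590, forward strand: atctgtgcatgCACGTGtgctcatgcat
*RAB18*, ABRE, chr5:26519541-26519569, reverse strand: ggaggagcattACGTGTCctgttagctac
*RD29B*, ABRE, chr5:21236972-21237000, forward strand: aactggctgagACGTGGCaggacgaaacg

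Of the 8, the EE was found in *SNRK2.2*, *ABI1* and *CYP707A4*, once in each. The site of *SNRK2.2* lies in an exon of the 5′ UTR, 102 bases from the start codon. Those of *ABI1* and *CYP707A4* lie before the transcript, 1105 and 1381 bases from the start codon. Among the members outside these 8, *HAI2*, *SNRK2.9* and *PYL6* have an EE nearer to the start codon than that of *SNRK2.2*. These lie at 67, 84 and 93 bases, also in exons of the 5′ UTR. In *HAB1*, *SNRK2.8*, *ABF3*, *CYP707A3* and *PYL5* these letters are not in the window searched. *CYP707A3* has an ABRE and a G-box that overlap, at 220 and 219 bases from its start codon, and a G-box at 979 and an ABRE at 1300 bases that do not, and *RD29B* has 3 ABRE matches, at 187 to 240 bases. *ABI1* also has an ABRE, at 829 bases, *ABF3* a G-box, at 1354 bases, and *RAB18* an EE, at 347 bases. The ABRE shown for *SNRK2.8* overlaps another annotated gene, AT1G09803, and that shown for *RAB18* overlaps AT5G66410.

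**Figure D1:**
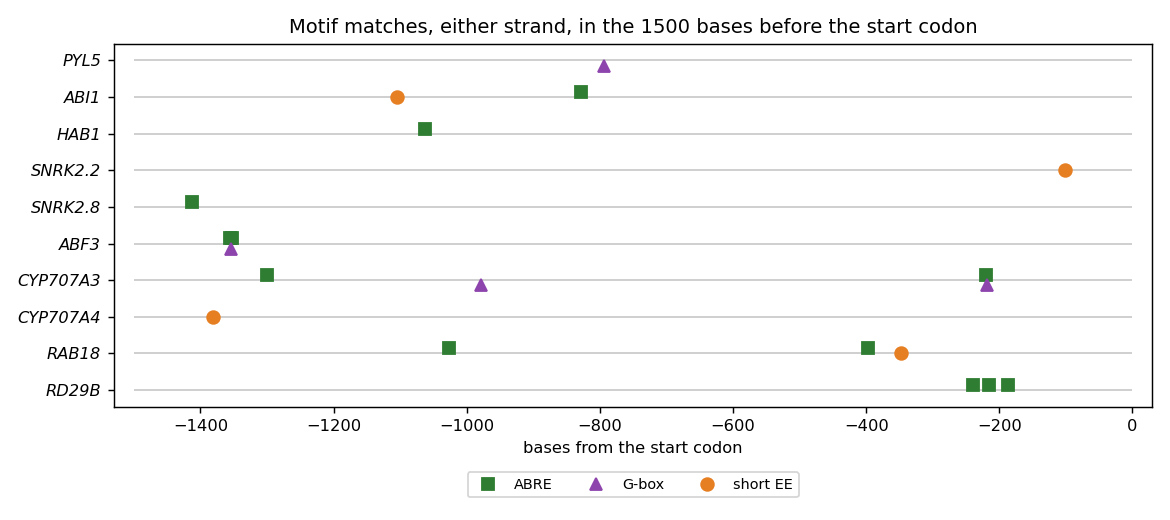
Motif matches in the 1500 bases before the start codon of the 8 members that differed in at least 1 comparison and of *RAB18* and *RD29B*. The horizontal axis is the distance from the start codon in bases, and each row is a gene. Squares, triangles and circles mark the ABRE, the G-box and the short EE. Among the genes drawn, the EE of *SNRK2.2* stands nearest to its start codon, at 102 bases. Members not drawn have nearer ones, *HAI2* at 67, *SNRK2.9* at 84 and *PYL6* at 93 bases.

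Differences were tested with edgeR's quasi-likelihood test, with p-values adjusted by Benjamini-Hochberg over the 19961 models that reached 1 CPM in 3 or more libraries, and called at an adjusted p under 0.01. Of the 44 members, 38 passed that filter. The other 6 are the receptor genes *PYL3*, *PYL11*, *PYL12* and *PYL13* and the phosphatase genes *AHG1* and *HAI3*, which had at most 4, 7, 2, 2, 5 and 12 counts in any library. Of the 38 members tested, 8 were called in at least 1 of the 5 comparisons (21.1%), and 10.4% of all models tested were. Since each library is made from whole seedlings, fewer cells of a type and less RNA per cell cannot be told apart.

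When *RVE8:GR* + DEX was compared with *RVE8:GR* + mock, which asks what DEX does in the line with the fusion, *CYP707A3* rose and *HAB1* fell. These are 2 of 38 members (5.26%), and 3.43% of all models tested were called, 2.07% higher and 1.36% lower. When *RVE8:GR* + DEX was compared with *rve8* + DEX, which asks how the lines differ when both are given DEX, *SNRK2.2* was higher and *HAB1*, *SNRK2.8*, *ABF3* and *CYP707A3* were lower. These are 5 of 38 members (13.2%), against 4.22% of all models, 1.89% higher and 2.32% lower. These comparisons share the *RVE8:GR* + DEX libraries.

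When *rve8* + DEX was compared with *rve8* + mock, the response to DEX without the fusion, *PYL5*, *ABI1*, *SNRK2.8* and *CYP707A3* rose and *CYP707A4* fell. These are again 5 of 38 members (13.2%), against 5.53% of all models, 3.96% higher and 1.57% lower. The split over all models, 790 higher and 313 lower, depends on scaling: it was 520 and 803 without TMM factors and 644 and 436 with upper-quartile factors. The *rve8* + DEX libraries serve in both this comparison and the one between the lines after DEX.

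In mock-treated plants, no member was called between the lines by edgeR's quasi-likelihood test, whereas 1.72% of all models were, 1.31% higher and 0.416% lower in *RVE8:GR* (261 and 83 models, or 216 and 148 without TMM factors and 222 and 128 with upper-quartile factors). There were 11 of 38 members at an unadjusted p under 0.05, and 20.2% of all models tested were. DESeq2 called *ABI1*, and edgeR's exact test called *ABI1* and *HAI2*. The DEX response of *RVE8:GR* minus that of *rve8*, tested as an interaction, was called for *HAB1*, *SNRK2.8* and *ABF3*, all 3 negative. They are 7.89% of the members tested, and 1.19% of all models were called, 0.24% positive and 0.947% negative (48 and 189 models, or 68 and 126 without TMM factors).

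The shares of all models also depend on single libraries. With DEX in *RVE8:GR*, leaving out 1 library gave 1.89% to 4.13%, and the share fell by over 1.5 times without the first (1.93%) or the third (1.92%) library of *RVE8:GR* + DEX or the second of *RVE8:GR* + mock (1.89%), where no member was called. Between the lines after DEX the range was 2.65% to 4.78%, with the lowest share, and 4 members called, without the second library of *rve8* + DEX. With DEX in *rve8* it was 2.57% to 7.05%. There the share fell by over 1.5 times without the first (2.94%, 3 members) or second (3.31%, 2 members) library of *rve8* + DEX or the first (3.64%, 3 members) or second (2.57%, 2 members) of *rve8* + mock.

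Between the lines after mock treatment the share of all models ran from 0.694% to 3.11%. It was lower by over 1.5 times without the first (0.919%) or second (1.14%) library of *RVE8:GR* + mock or the first (1.06%) or second (0.694%) of *rve8* + mock, and higher without the third of *rve8* + mock (3.11%), and no member was called in any of these fits. For the interaction the range was 0.632% to 1.59%. It fell by over 1.5 times without the first library of *RVE8:GR* + DEX (0.632%) or the second of *rve8* + mock (0.673%), where no member was called. The same held without the second of *RVE8:GR* + mock (0.754%) or the first (0.738%) or second (0.713%) of *rve8* + DEX, with 1 member called in each.

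At an adjusted p under 0.05, *SNRK2.2* and *SNRK2.3* joined *CYP707A3* among the members higher with DEX in *RVE8:GR*, and *ABF3* joined *HAB1* among the lower, where 3.78% of all models were higher and 2.96% lower. Between the lines after DEX, *ABF1* was added to the higher and *ABF2* and *CYP707A2* to the lower members, against 3.31% and 3.99% of all models. With DEX in *rve8*, *SNRK2.3*, *SNRK2.4*, *ABF2* and *ABF3* were added to the higher members and none to the lower, against 7.75% and 4.66% of all models. After mock treatment *ABI1* was higher and *PYR1* lower in *RVE8:GR*, against 3.48% and 1.87% of all models. No member was added in the interaction, where 0.661% of all models were positive and 2.14% negative.

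The median log2 fold changes of the 38 members were 0.02, -0.04, 0.10, 0.05 and -0.07 in the 5 comparisons in that order, and those of all models tested were between -0.01 and 0.01. The study's methods leave out genes that show the same trend with DEX in *rve8*. On that reading, a gene is RVE8-induced when *RVE8:GR* + DEX exceeds either of its controls and DEX does not raise that gene in *rve8*. RVE8-repressed genes are the reverse. The RVE8-induced set held *SNRK2.2* alone among the members and 2.37% of all models. The RVE8-repressed set held *HAB1*, *SNRK2.8*, *ABF3* and *CYP707A3*, and 3.0% of all models. Elsewhere the study words the sets as genes that do not differ between *rve8* + DEX and *rve8* + mock. By that wording *SNRK2.8* and *CYP707A3*, which were called with DEX in *rve8*, would leave the RVE8-repressed set. Only *HAB1* was called in the same direction against both controls. These sets rest on edgeR's quasi-likelihood test, while the study used edgeR's exact test. With the exact test run here, *ABF1* joined the RVE8-induced and *CYP707A2* the RVE8-repressed members.

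**Figure D2:**
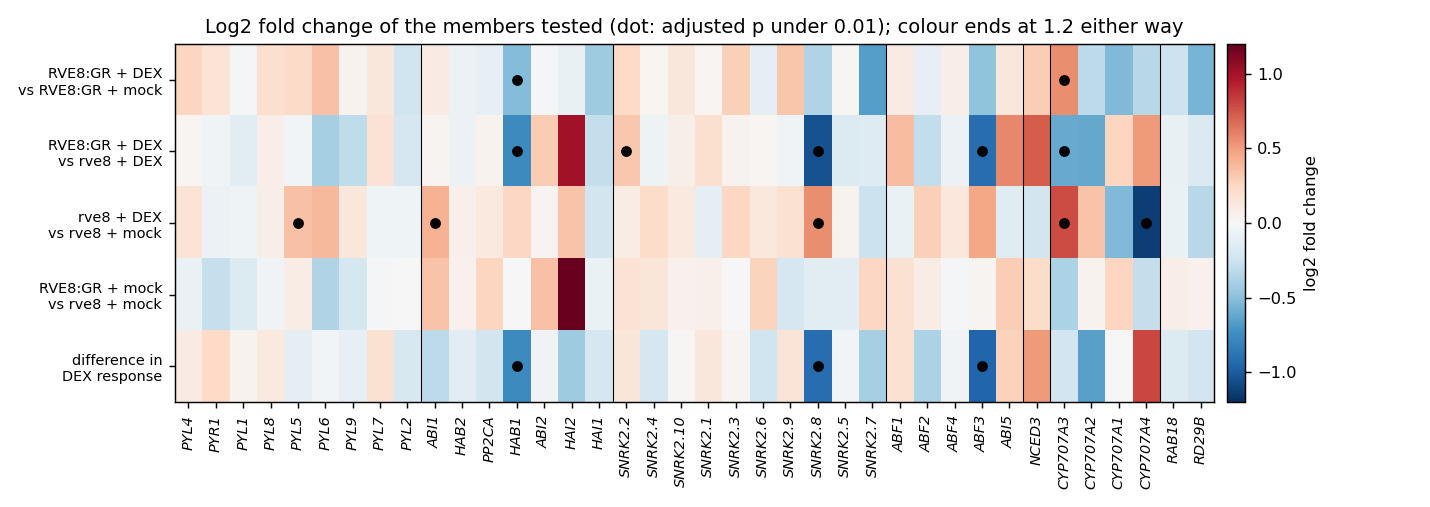
Log2 fold change of each of the 38 members tested (columns, grouped by role) in the 5 comparisons (rows), with red for higher and blue for lower in the group named first and a dot at an adjusted p under 0.01. The 15 dots fall on 8 genes, and none is in the row comparing the lines after mock treatment.

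The receptors bind abscisic acid and then block the phosphatases. Levels per length, as RPKM (CPM per kilobase of transcript) averaged over the 12 libraries, were highest for *PYL4* at 217 and *PYR1* at 110, then *PYL1* at 42.2, *PYL8* at 38.3 and *PYL5* at 36.5. *PYL6*, *PYL9*, *PYL7* and *PYL2* were between 9.73 and 2.76 RPKM. *PYL4* was at 236, 277 and 378 CPM in *rve8* + mock, 328, 356 and 312 in *rve8* + DEX, 273, 263 and 308 in *RVE8:GR* + mock and 359, 304 and 349 in *RVE8:GR* + DEX. Its mock libraries spread more widely in *rve8* than in *RVE8:GR*, the groups overlap, and it was not called in any of the 5 comparisons.

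*PYL5* (AT5G05440, chr5:1608988-1610527, 1 exon) was the receptor gene that was called. It was at 50.7, 45.9 and 50.6 CPM in *rve8* + mock and at 60.1, 65.0 and 62.8 CPM in *rve8* + DEX. The *RVE8:GR* libraries were at 45.1, 56.1 and 54.9 CPM after mock treatment and at 63.6, 55.0 and 64.6 CPM after DEX. The 3 *rve8* + DEX libraries all lie above the 3 *rve8* + mock libraries, and in *RVE8:GR* the treatments overlap. *PYL5* rose by 0.35 (SE 0.0827) on the log2 scale in *rve8* (adjusted p = 0.0072, edgeR's quasi-likelihood test), and the change in *RVE8:GR* was 0.23 (adjusted p = 0.103). The responses of the lines were not called different (-0.12, 95% interval -0.36 to 0.12). The call in *rve8* was lost without TMM factors (adjusted p = 0.0253), with upper-quartile factors (0.0121) and without 1 library in 7 of 12 cases, with adjusted p from 0.0102 to 0.0571. Those were the first library of *RVE8:GR* + DEX and each of the 6 *rve8* libraries.

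Among the other receptor genes, *PYR1* differed between the lines after mock treatment by -0.28 on the log2 scale (adjusted p = 0.0438), with the lower level in *RVE8:GR*, and misses the threshold of 0.01. It was called there at that threshold only without the third library of *RVE8:GR* + mock. *PYL6* had unadjusted p-values under 0.05 in 4 of the comparisons, with log2 fold changes from -0.40 to 0.39, and none passed after adjustment.

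The clade A phosphatases keep the pathway off. Per length, *ABI1* was highest at 21.0 RPKM, followed by *HAB2* at 10.5, *PP2CA* at 10.09, *HAB1* at 8.41 and *ABI2* at 4.00. *HAI2* and *HAI1*, which belong to a group strongly induced by abscisic acid, were at 0.492 and 0.469 RPKM.

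*HAB1* (AT1G72770, chr1:27389948-27393327, 5 exons) encodes a phosphatase that restrains SnRK2 kinases. It was at 25.8, 22.7 and 20.9 CPM in *rve8* + mock and at 26.4, 26.3 and 29.5 CPM in *rve8* + DEX. In *RVE8:GR* it was at 22.2, 26.3 and 20.9 CPM after mock treatment and at 16.9, 17.8 and 13.7 CPM after DEX. The 3 *RVE8:GR* + DEX libraries are the lowest of the 12 and overlap with no other group. *HAB1* fell by 0.52 (SE 0.111) on the log2 scale with DEX in *RVE8:GR* (adjusted p = 0.00477, edgeR's quasi-likelihood test), and after DEX it was at 0.590 times its level in *rve8*, a log2 fold change of -0.76 (SE 0.110, adjusted p = 6.24e-05). In mock-treated plants the lines differed by 0.00 (95% interval -0.23 to 0.23).

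The call between the lines after DEX held with every library left out in turn and under the other settings tried. The call against *RVE8:GR* + mock was lost when only those 2 groups were fitted (adjusted p = 0.0102). It was also lost without the first (0.0175) or the third (0.0435) library of *RVE8:GR* + DEX and without the first (0.0110) or second (0.0516) of *RVE8:GR* + mock.

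*ABI1* (AT4G26080, chr4:13219915-13222376, 4 exons), the phosphatase gene of the classical abscisic acid insensitive mutant, was lowest in *rve8* + mock. It was at 38.9, 36.8 and 34.5 CPM there and at 50.4, 46.7 and 49.4 CPM in *rve8* + DEX. The line with the fusion was at 49.9, 46.1 and 43.6 CPM after mock treatment and at 46.1, 48.9 and 55.0 CPM after DEX. All 9 libraries of the other groups lie above the 3 of *rve8* + mock, and those 3 groups overlap with each other. *ABI1* rose by 0.41 (SE 0.0781) on the log2 scale with DEX in *rve8* (adjusted p = 0.00129, edgeR's quasi-likelihood test). In *RVE8:GR* the log2 fold change with DEX was 0.10 (adjusted p = 0.540), and that between the lines after mock treatment was 0.34 (adjusted p = 0.0123). The latter passed with DESeq2 (0.00473), with edgeR's exact test (0.00575), with no filter on low counts (0.00642) and without the third library of *RVE8:GR* + DEX (0.00937). The interaction was not called (-0.31, adjusted p = 0.155).

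*HAI2* had few counts, 3 to 35 in a library. It was at 0.176, 0.545 and 0.771 CPM in *rve8* + mock and at 1.53, 1.71 and 0.801 CPM in *RVE8:GR* + mock. The log2 fold change between the lines was 1.44 (SE 0.460, adjusted p = 0.0720), and it passed only with edgeR's exact test. *HAB2* was the steadiest of the phosphatase genes, with group means of 27.1 to 28.5 CPM.

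**Figure D3:**
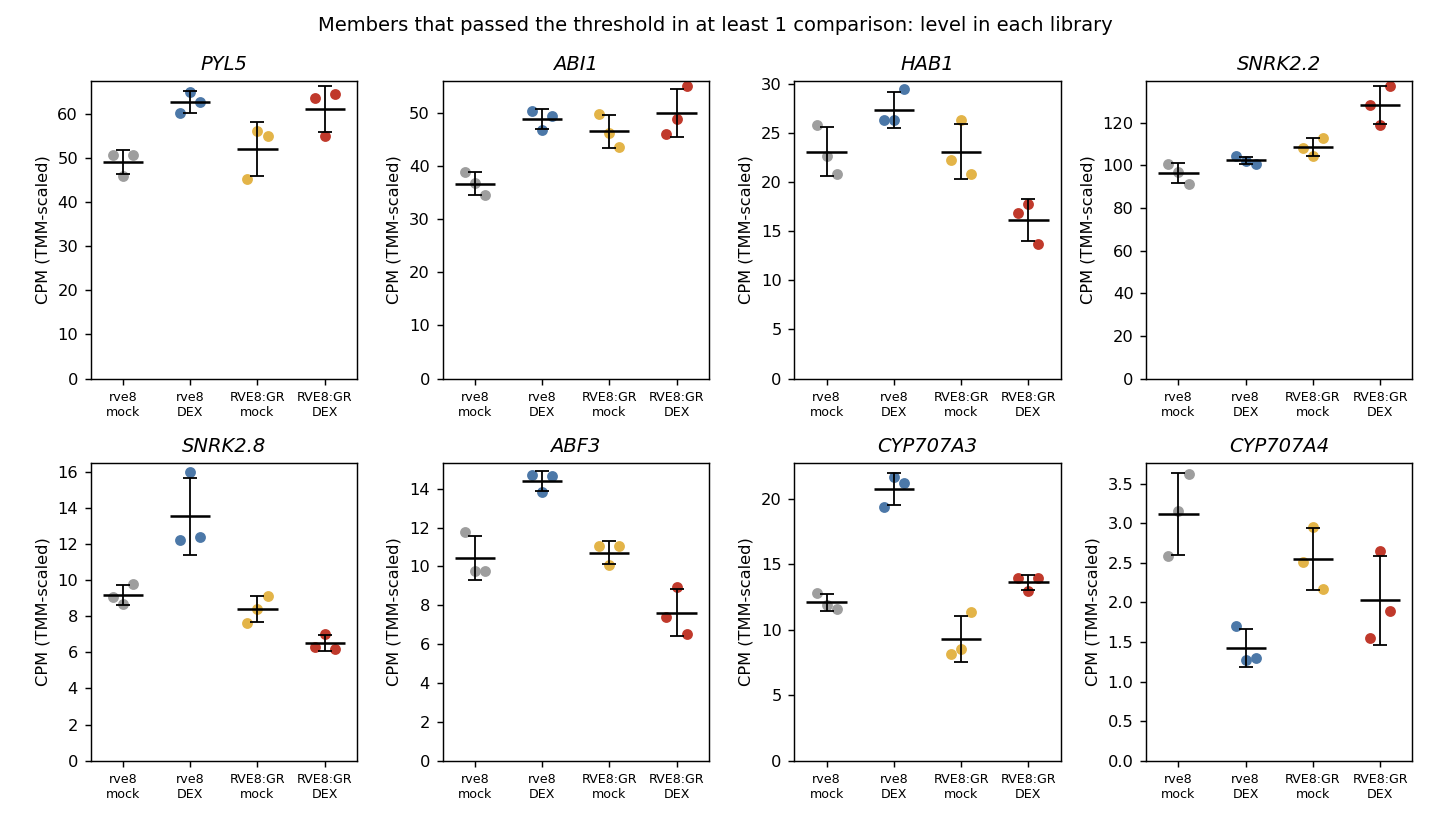
Level of the 8 members called in at least 1 comparison, in TMM-scaled CPM on a linear axis from 0, for each of the 12 libraries (points), with the mean of each group of 3 (line) and its SD (bar). The *RVE8:GR* + DEX libraries are the lowest for *HAB1*, *SNRK2.8* and *ABF3*, and the *rve8* + DEX libraries are the highest for *CYP707A3* and the lowest group mean for *CYP707A4*.

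The SnRK2 kinases carry the signal onward, and SnRK2.2, SnRK2.3 and SnRK2.6 are the members that abscisic acid activates strongly. Per length, *SNRK2.2* was highest at 69.2 RPKM. *SNRK2.4*, *SNRK2.10* and *SNRK2.1* were at 34.8, 33.0 and 31.5 RPKM, *SNRK2.3* at 22.4 and *SNRK2.6*, the kinase of guard cells, at 12.0. *SNRK2.9*, *SNRK2.8*, *SNRK2.5* and *SNRK2.7* were between 6.03 and 1.51 RPKM.

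*SNRK2.2* (AT3G50500, chr3:18741594-18744157, 9 exons) was at 101, 96.7 and 91.2 CPM in *rve8* + mock and at 104, 102 and 101 CPM in *rve8* + DEX. The *RVE8:GR* libraries held 108, 105 and 113 CPM after mock treatment and 128, 119 and 137 CPM after DEX. The *RVE8:GR* + DEX libraries are the 3 highest and overlap with no other group. After DEX, *SNRK2.2* in *RVE8:GR* was at 1.25 times its level in *rve8*, a log2 fold change of 0.32 (SE 0.0636, adjusted p = 0.00176, edgeR's quasi-likelihood test). The change with DEX in *RVE8:GR*, 0.24 (adjusted p = 0.0233), and that between the lines after mock treatment, 0.18 (adjusted p = 0.119), did not pass, nor did the interaction (0.15, adjusted p = 0.499). The call was lost without the third library of *RVE8:GR* + DEX (adjusted p = 0.0173) and without the second (0.0107) or the third (0.0125) of *rve8* + DEX.

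*SNRK2.8* (AT1G78290, chr1:29457205-29459493, 6 exons) encodes a kinase that osmotic stress activates and abscisic acid activates only weakly. It was at 9.06, 8.66 and 9.79 CPM in *rve8* + mock and at 12.2, 15.97 and 12.4 CPM in *rve8* + DEX. Levels in *RVE8:GR* were 7.64, 8.40 and 9.09 CPM after mock treatment and 6.32, 7.00 and 6.19 CPM after DEX. The *rve8* + DEX libraries are the 3 highest and the *RVE8:GR* + DEX libraries the 3 lowest, and the mock groups lie between them and overlap. After DEX, *SNRK2.8* in *RVE8:GR* was 0.483 times its level in *rve8*, a log2 fold change of -1.05 (SE 0.130, adjusted p = 9.23e-06, edgeR's quasi-likelihood test), the largest of the member calls in that comparison. With DEX it rose in *rve8* by 0.56 (SE 0.127, adjusted p = 0.00603), and its log2 fold change in *RVE8:GR* was -0.36 (adjusted p = 0.127), which did not pass.

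The call between the lines after DEX held without each library. The call in *rve8* was lost without TMM factors (adjusted p = 0.0135), when only those groups were fitted (0.0122), without the second library of *rve8* + DEX (0.0524) and without the first (0.0206) or second (0.0383) of *rve8* + mock.

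*SNRK2.3*, the closest relative of *SNRK2.2*, was at 33.2, 32.5 and 34.1 CPM in *rve8* + mock and 38.9, 41.5 and 38.3 CPM in *rve8* + DEX. It was at 34.0, 35.9 and 30.1 CPM in *RVE8:GR* + mock and 39.5, 40.9 and 41.6 CPM in *RVE8:GR* + DEX. In each line all DEX libraries lie above all mock libraries, but the log2 fold changes of 0.25 (adjusted p = 0.0323) and 0.28 (adjusted p = 0.0203) missed the threshold by edgeR's quasi-likelihood test. The other 7 kinase genes were not called in any of the 5 comparisons.

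The ABF/ABI5 factors are bZIP proteins that switch on genes with an ABRE. *ABF1*, *ABF2* and *ABF4* stood close together at 13.5, 13.1 and 12.4 RPKM, *ABF3* was at 5.42 and *ABI5*, known from seeds, at 1.49. *ABF1* was at 21.3, 23.0 and 19.0 CPM in *rve8* + mock, 20.8, 17.7 and 21.1 in *rve8* + DEX, 24.9, 23.2 and 23.8 in *RVE8:GR* + mock and 25.0, 25.0 and 27.2 in *RVE8:GR* + DEX. Its libraries after DEX do not overlap between the lines, and the log2 fold change of 0.37 had an adjusted p of 0.0131 by edgeR's quasi-likelihood test. It passed with edgeR's exact test (0.00833), with no filter on low counts (0.00997) and without the third library of *rve8* + mock (0.00798).

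*ABF3* (AT4G34000, chr4:16295552-16298255, 6 exons) was at 11.8, 9.75 and 9.79 CPM in *rve8* + mock and at 14.7, 13.8 and 14.7 CPM in *rve8* + DEX. In *RVE8:GR* it was at 11.0, 10.05 and 11.0 CPM after mock treatment and at 7.39, 8.95 and 6.53 CPM after DEX. As for *SNRK2.8*, the *rve8* + DEX libraries are the 3 highest and the *RVE8:GR* + DEX libraries the 3 lowest. After DEX, *ABF3* in *RVE8:GR* was 0.532 times its level in *rve8*, a log2 fold change of -0.91 (SE 0.123, adjusted p = 2.74e-05, edgeR's quasi-likelihood test). That call held without each library. The log2 fold changes with DEX within the lines, -0.48 in *RVE8:GR* (adjusted p = 0.0200) and 0.46 in *rve8* (adjusted p = 0.0142), each missed the threshold. The first passed without the second library of *RVE8:GR* + DEX (adjusted p = 0.00580), and the second passed with DESeq2 (0.00995) and edgeR's exact test (0.00928).

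*NCED3*, which drives synthesis of the hormone in stressed leaves, was low at 0.490 RPKM, with 12 to 46 counts in a library. It was at 1.29, 1.33 and 1.01 CPM in *rve8* + mock, 0.990, 0.694 and 1.402 in *rve8* + DEX, 1.82, 1.45 and 0.915 in *RVE8:GR* + mock and 1.64, 2.13 and 1.38 in *RVE8:GR* + DEX. These values overlap between groups. No difference passed the test at this depth, and the 95% interval of the log2 change of *RVE8:GR* given DEX ran from -0.35 to 0.93. Between the lines after DEX, *NCED3* had a log2 fold change of 0.73 (adjusted p = 0.215, edgeR's quasi-likelihood test), with an unadjusted p under 0.05.

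The *CYP707A* genes encode the enzymes that break abscisic acid down, and *CYP707A3* was the highest of them at 7.16 RPKM, before *CYP707A2* at 5.75, *CYP707A1* at 2.31 and *CYP707A4* at 1.57. *CYP707A3* (AT5G45340, chr5:18368532-18371021, 6 exons) was at 12.8, 11.9 and 11.6 CPM in *rve8* + mock and at 19.4, 21.7 and 21.2 CPM in *rve8* + DEX. In *RVE8:GR* it was at 8.14, 8.50 and 11.3 CPM after mock treatment and at 13.9, 12.99 and 13.99 CPM after DEX. In each line all DEX libraries lie above all mock libraries, and with either treatment all *RVE8:GR* libraries lie below those of *rve8*.

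*CYP707A3* rose with DEX in both lines, by 0.78 (SE 0.113, adjusted p = 0.00013) on the log2 scale in *rve8* and by 0.55 (SE 0.118, adjusted p = 0.00445) in *RVE8:GR*, by edgeR's quasi-likelihood test. The difference of those responses was -0.23 (95% interval -0.57 to 0.11, adjusted p = 0.591). After DEX it was lower in *RVE8:GR* than in *rve8* by a log2 fold change of -0.61 (SE 0.110, adjusted p = 0.000817), and after mock treatment by -0.38 (adjusted p = 0.0698), which did not pass. *CYP707A3* is thus in the RVE8-repressed set, as read here, through its lower level against *rve8* + DEX, while it rose with DEX within *RVE8:GR*. Its call in *RVE8:GR* was lost when only those 2 groups were fitted (adjusted p = 0.0144), without the first (0.0258) or the third (0.0232) library of *RVE8:GR* + DEX and without the first (0.0373) or second (0.0381) of *RVE8:GR* + mock. Its calls in *rve8* and between the lines after DEX held without each library.

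*CYP707A4* (AT3G19270, chr3:6674398-6676520, 8 exons) moved the other way. It was at 2.59, 3.15 and 3.62 CPM in *rve8* + mock and at 1.71, 1.27 and 1.30 CPM in *rve8* + DEX. In *RVE8:GR* it was at 2.52, 2.95 and 2.17 CPM after mock treatment and at 1.54, 2.64 and 1.89 CPM after DEX. The treatments do not overlap in *rve8* and do overlap in *RVE8:GR*. It fell by 1.13 (SE 0.261) on the log2 scale with DEX in *rve8* (adjusted p = 0.00671, edgeR's quasi-likelihood test), and the change in *RVE8:GR* was -0.33 (adjusted p = 0.540). The interaction, 0.80 (SE 0.362, adjusted p = 0.322), did not pass. With 22 to 61 counts in a library, its call was lost when only those groups were fitted (adjusted p = 0.0105) and without each library of *rve8* + DEX in turn (0.0125, 0.0309 and 0.0296), or the second (0.0265) or the third (0.0227) of *rve8* + mock.

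*CYP707A1* had log2 fold changes of -0.53 with DEX in each line (adjusted p = 0.0532 in *rve8* and 0.0594 in *RVE8:GR*), which did not pass. *CYP707A2* was lower after DEX in *RVE8:GR* than in *rve8* by -0.61 (adjusted p = 0.0195), which did not pass. It passed with DESeq2 (0.00497), with edgeR's exact test (0.000884), with only those groups fitted (0.0030), with the replicate number as a block (0.00546) and without the first (0.00165) or the third (0.00827) library of *rve8* + mock.

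**Figure D4:**
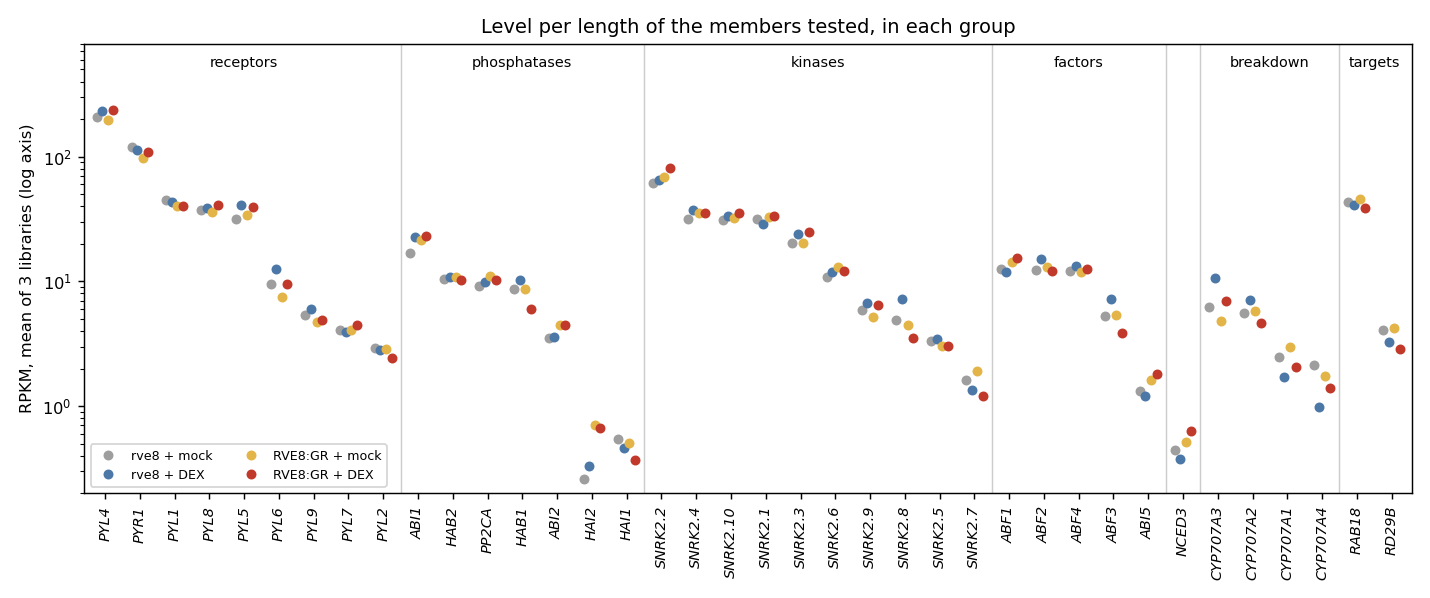
Mean level per length of the 38 members tested in each of the 4 groups of 3 libraries, in RPKM on a log axis, ordered by role and within a role by level. Averages over all libraries run from 0.469 RPKM for *HAI1* to 217 RPKM for *PYL4*, and for most members the 4 groups lie close together.

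*RAB18* and *RD29B* are targets of the ABF/ABI5 factors and are often used to read the response to abscisic acid. *RAB18* was at 45.6, 47.8 and 44.6 CPM in *rve8* + mock, 45.0, 41.5 and 44.3 in *rve8* + DEX, 48.1, 50.9 and 46.6 in *RVE8:GR* + mock and 36.6, 40.0 and 46.6 in *RVE8:GR* + DEX. *RD29B* was at 8.06, 11.0 and 7.53 CPM, 8.03, 9.26 and 4.01 CPM, 6.76, 11.2 and 9.67 CPM and 6.65, 5.70 and 6.42 CPM in the same order of groups. Neither was called in any of the 5 comparisons. The lowest adjusted p of the pair was that of *RAB18* in *RVE8:GR* given DEX, with a log2 fold change of -0.24 (adjusted p = 0.0692, edgeR's quasi-likelihood test). For *RD29B* in that comparison the log2 fold change was -0.55 with a 95% interval from -1.15 to 0.04.

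The lines responded to DEX differently at *HAB1*, *SNRK2.8* and *ABF3*, a phosphatase, a kinase and a factor of the pathway. For each, DEX gave a positive log2 fold change in *rve8* and a negative one in *RVE8:GR*: 0.25 and -0.52 for *HAB1*, 0.56 and -0.36 for *SNRK2.8*, 0.46 and -0.48 for *ABF3*. Among these 6 changes, only that of *HAB1* in *RVE8:GR* and that of *SNRK2.8* in *rve8* passed on their own. The differences were -0.76 (SE 0.155, adjusted p = 0.00698), -0.92 (SE 0.185, adjusted p = 0.0068) and -0.95 (SE 0.175, adjusted p = 0.00323) by edgeR's quasi-likelihood test.

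These 3 calls lie near the threshold and depend on single libraries. Without 1 library, *HAB1* was lost in 9 of 12 cases (adjusted p from 0.0114 to 0.0296), all but the second of *RVE8:GR* + DEX, the third of *RVE8:GR* + mock and the first of *rve8* + mock. *SNRK2.8* was lost in 8 (0.0101 to 0.0269), all but the first of *RVE8:GR* + mock, the first and the third of *rve8* + DEX and the third of *rve8* + mock. *ABF3* was lost in 4 (0.0106 to 0.0151), the first and the third of *RVE8:GR* + DEX, the first of *rve8* + DEX and the second of *rve8* + mock. No sign changed. Without TMM factors *HAB1* (0.0205) and *SNRK2.8* (0.0110) were lost and *ABF3* was not.

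**Figure D5:**
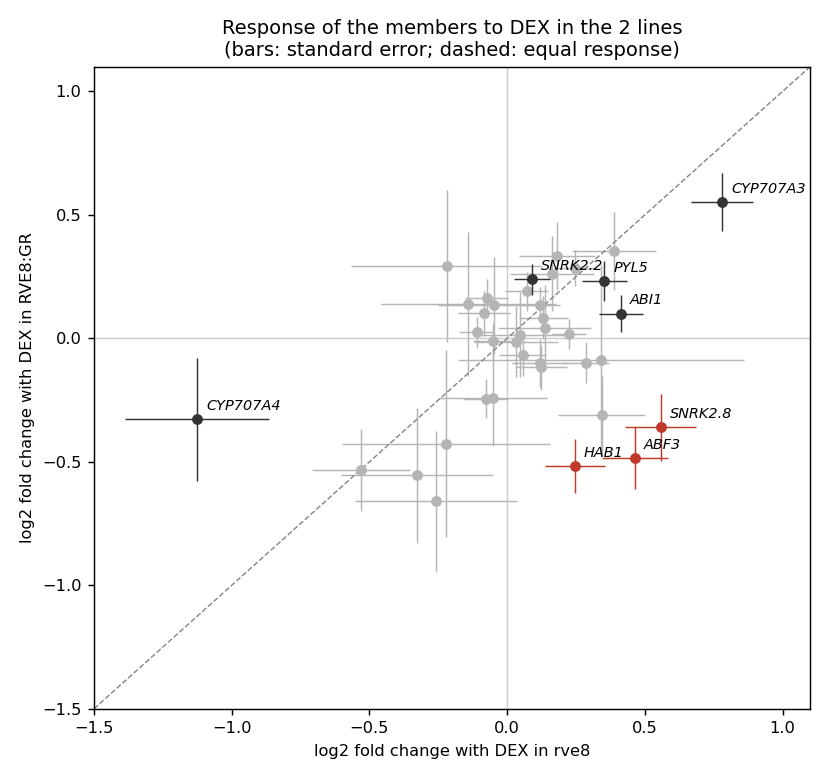
Response to DEX as a log2 fold change, in *rve8* on the horizontal axis and in *RVE8:GR* on the vertical axis, for the 38 members tested, with standard errors as bars. The dashed line marks an equal response. *HAB1*, *SNRK2.8* and *ABF3* (red) lie to the right of and below zero, at 0.25 and -0.52, 0.56 and -0.36, and 0.46 and -0.48; the other called members are in black.

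Other genes of the pathway were taken from lists of synthesis (5 of 9 tested), conjugation and transport (9 of 9), further regulators (8 of 10), further targets (25 of 27) and ion channels and oxidases of guard cells (7 of 7). These lists were chosen with earlier results of these data known. Among the further targets, 4 of 25 were higher in *RVE8:GR* than in *rve8* after mock treatment and none was lower: *COR15A* (log2 fold change 1.79), *COR15B* (1.32), *RD29A* (1.01) and *RD22* (0.67), with adjusted p from 2.83e-06 to 3.74e-05 by edgeR's quasi-likelihood test. Over all models, 1.31% were called higher and 0.416% lower there. These genes respond to cold and drought as well as to abscisic acid. *RD29A*, the neighbour of *RD29B*, was at 16.8, 14.4 and 15.8 CPM in *rve8* + mock and at 31.8, 32.4 and 30.3 CPM in *RVE8:GR* + mock. After DEX it was at 16.8, 12.9 and 14.5 CPM in *rve8* and at 22.1, 26.4 and 22.2 CPM in *RVE8:GR*. Its *RVE8:GR* libraries all lie above its *rve8* libraries.

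After DEX, 5 of the 25 further targets were higher in *RVE8:GR* than in *rve8* and none was lower, against 1.89% and 2.32% of all models. They are *KIN1* (log2 fold change 1.63), *COR15A* (1.14), *COR15B* (1.00), *RD29A* (0.68) and *LTI30* (0.56). The call of *LTI30* was lost without the first (0.0114) or second (0.0161) library of *RVE8:GR* + DEX or the second of *rve8* + DEX (0.0162). With DEX in *RVE8:GR*, 2 of 25 fell (1.36% of all models did), *RD22* by 0.44 and *RD29A* by 0.42 on the log2 scale. *COR15A* was not called there, but passed with DESeq2 (log2 fold change -0.62, adjusted p = 0.00134) and edgeR's exact test (-0.62, 5.46e-05). It also passed without the third library of *RVE8:GR* + mock (0.000167). The call of *RD29A* there was lost without 1 library in 7 of 12 cases, with adjusted p from 0.0126 to 0.0733, namely any of the 3 of *RVE8:GR* + mock, the first or the third of *RVE8:GR* + DEX, the third of *rve8* + DEX or the second of *rve8* + mock. With DEX in *rve8*, 1 of 25 was called (5.53% of all models were), *KIN1*, which fell by 1.76 on the log2 scale.

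The interaction was called for 2 of the 25 further targets (and for 1.19% of all models), with opposite signs. That of *RD22* was negative (-0.73, adjusted p = 0.000806), and that of *KIN1* was positive (1.61, SE 0.247, adjusted p = 0.00746, edgeR's quasi-likelihood test). *KIN1*, a gene induced by cold and abscisic acid, was at 55.8, 63.7 and 75.4 CPM in *rve8* + mock and at 17.00, 15.1 and 25.1 CPM in *rve8* + DEX. In *RVE8:GR* it was at 70.2, 61.2 and 66.2 CPM after mock treatment and at 61.1, 64.97 and 52.1 CPM after DEX. The *rve8* + DEX libraries are the 3 lowest, and the other groups overlap. The interaction of *KIN1* was lost with no filter on low counts (0.0156), with the replicate number as a block (0.0142) and without 1 library in 10 of 12 cases (0.0103 to 0.0250), all but the second and the third of *rve8* + DEX. Of its 50-base stretches, 1.28% recur in *KIN2*.

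*ABA1*, the zeaxanthin epoxidase at the start of synthesis, was the 1 called gene of the 5 other synthesis genes. It was at 107, 104 and 117 CPM in *rve8* + mock and at 145, 170 and 163 CPM in *rve8* + DEX. In *RVE8:GR* it was at 134, 140 and 131 CPM after mock treatment and at 109, 114 and 116 CPM after DEX. It rose by 0.54 on the log2 scale with DEX in *rve8* (adjusted p = 2.99e-05), was lower in *RVE8:GR* than in *rve8* after DEX by a log2 fold change of -0.50 (adjusted p = 2.81e-05), and had an interaction of -0.80 (SE 0.0955, adjusted p = 5.43e-05), all by edgeR's quasi-likelihood test and all kept without each library. Its DEX responses in the lines have opposite signs, as at *HAB1*, *SNRK2.8* and *ABF3*. Over all models, 5.53% were called with DEX in *rve8*, 4.22% between the lines after DEX and 1.19% in the interaction.

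*DTX50*, an exporter of abscisic acid, fell with DEX by 0.65 in *RVE8:GR* and by 0.62 in *rve8* on the log2 scale. It was the 1 called of 9 genes of conjugation and transport in each, against 3.43% and 5.53% of all models. The first call was lost without the first or the third library of *RVE8:GR* + DEX or the second or the third of *RVE8:GR* + mock (adjusted p from 0.0141 to 0.0325). The second was lost without any of the 3 of *rve8* + DEX or the first or second of *rve8* + mock (0.0129 to 0.0306). *RBOHD*, an NADPH oxidase, was the 1 called of 7 genes of guard cell effectors. Its log2 fold change was 0.44 with DEX in *rve8* (5.53% of all models were called) and -0.36 between the lines after DEX (4.22%). Its interaction of -0.43 (adjusted p = 0.0075, edgeR's quasi-likelihood test) was also called, as were 1.19% of all models. That call was lost without TMM factors (0.0221), with upper-quartile factors (0.0113) and in 10 of 12 cases without 1 library (0.0160 to 0.0240). Those were all but the second of *RVE8:GR* + mock and replicate 3 of *rve8* + mock. None of the 8 further regulators was called in any of the 5 comparisons by edgeR's quasi-likelihood test. At most 2 of them were at an unadjusted p under 0.05 in a comparison, against 13.9% to 26.4% of all models. DESeq2 and edgeR's exact test, which gives no interaction, called none of the 8 either.

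Markers of tissues stood apart between the treatments in *rve8*. Summed leaf markers were at 24815 to 29213 CPM in *rve8* + mock and at 30328 to 34848 CPM in *rve8* + DEX, with *RCA* and *CAB3* of the 4 genes called higher. Summed guard cell markers were at 75.7 to 88.5 and 96.3 to 104.6 CPM, with none of 5 called, and root markers at 2091 to 2188 and 1577 to 1842 CPM, with *NRT2.1* of 7 called lower. In these 3 lists the treatments do not overlap, and such sums were not made for other genes. Over all models, 5.53% were called with DEX in *rve8*, 3.96% higher and 1.57% lower. Between the lines after DEX, 4.22% of all models were called, and *RCA* was the 1 marker called, lower in *RVE8:GR*. In the interaction *CAB3* was the 1 called, and all 4 leaf markers were negative (median log2 value -0.43, 3 at an unadjusted p under 0.05). Of the guard cell markers, 4 of 5 were negative there (median -0.39, 3 under 0.05), and of the root markers 6 of 7 were positive (median 0.39, 3 under 0.05). Over all models, 1.19% were called in the interaction and 13.9% had an unadjusted p under 0.05. Of the 8 seed markers, whose sums overlap between the treatments, *EM1* was called lower with DEX in *rve8*. In *RVE8:GR*, leaf markers were at 27401 to 28684 CPM after mock treatment and 27561 to 30749 CPM after DEX. No marker was called there, against 3.43% of all models. The part of these markers in the calls of *PYL5*, *ABI1*, *SNRK2.8*, *CYP707A3* and *CYP707A4* in *rve8*, in the calls between the lines after DEX and in the interactions of *HAB1*, *SNRK2.8* and *ABF3* was not tested.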

How the data were processed

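After filters on quality and removal of adapters, the authors mapped their reads to the representative cDNA models of TAIR10 with BWA, merged lanes with SAMtools, and deposited 1 table of raw counts per model for the 12 libraries, made from reads on the reverse strand. The treatment of reads that match several models equally is not given in the sources used here; of the 50-base stretches of the members' cDNAs, at most 0.589% (*SNRK2.4* and *SNRK2.10*) recur in another model. The 33457 empty cells were taken as 0, as no written count is below 1. All columns were matched to labelled samples. The sample labels give 30 mM DEX, and the methods give the same number in micromolar.

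The test was the quasi-likelihood test of edgeR 4.0.16 under R 4.3.3, robust and with TMM factors from 0.959 to 1.05, on the counts of the 19961 models that reached 1 CPM in 3 or more libraries, with all 4 groups in 1 fit and no covariate. The study used edgeR's exact test at the same threshold, an adjusted p of 0.01, and that test was run as an alternative. Replicates are described in the methods as biological. Replicate pairs differed by more than sampling noise (chi-square per degree of freedom 4.06 to 10.5). Levels per length use transcript lengths of TAIR10.1, in which all 44 members were matched by name. CPM, RPKM, promoters and figures were computed with pandas 2.3.3, numpy 2.4.6 and matplotlib 3.10.9 under Python 3.11.15. The fit was tested on simulated data with known changes.

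Named with values in each library are the members called in any comparison and the highest member of each role per length, and from each other list at most the 4 called genes with the smallest adjusted p. *HAI2*, *SNRK2.3*, *RD29B*, *KIN1*, *LTI30* and the values of *PYL6* were added after their values were seen. The members and lists were chosen with earlier results of these data known. *NCED6* and the receptor proteins were not analysed here. The alternatives were upper-quartile factors, no TMM factors, DESeq2 1.42.0, edgeR's exact test, no filter on low counts, at least 10 counts in every library, the replicate number as a block, only the groups compared, an adjusted p under 0.05, membership against both controls and leaving out each library in turn.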

Additional observations from a re-analysis of the deposited data

Results flagged for a closer look

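The response to DEX differed between the lines, by the interaction term of edgeR's quasi-likelihood test, for 3 of the 38 members tested (7.89%). Of all models tested, 1.19% were called there, 0.24% positive and 0.947% negative. The response in *RVE8:GR* minus that in *rve8* was -0.76 for *HAB1*, -0.92 for *SNRK2.8* and -0.95 for *ABF3* on the log2 scale. For each, the response was positive in *rve8* and negative in *RVE8:GR*. Within the lines, only *HAB1* in *RVE8:GR* and *SNRK2.8* in *rve8* passed on their own. Without 1 library, the interaction was lost in 9 of 12 cases for *HAB1*, 8 for *SNRK2.8* and 4 for *ABF3*.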

How the results depend on the processing

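Of the member calls, those of *HAB1*, *SNRK2.8*, *ABF3* and *CYP707A3* between the lines after DEX and those of *ABI1* and *CYP707A3* with DEX in *rve8* held in all 9 other settings and all 12 fits without 1 library, and no called value changed sign. With only the groups compared in the fit, no member was called with DEX in *RVE8:GR* (0 higher and 0 lower) or lower with DEX in *rve8* (0). Without TMM factors, 2 members rose with DEX in *rve8* and 1 had a called interaction. Between the lines after DEX, 2 were higher with edgeR's exact test, with no filter and at an adjusted p under 0.05, and so 2 were RVE8-induced in each. Between the lines after mock treatment, 1 was higher with DESeq2, 2 with the exact test and 1 with no filter. At an adjusted p under 0.05, 3 rose and 2 fell with DEX in *RVE8:GR* (3.78% and 2.96% of all models), 8 rose with DEX in *rve8* (7.75%), and 1 was higher and 1 lower between the lines after mock treatment (3.48% and 1.87%). Against both controls, 0 members were RVE8-induced and 1 was RVE8-repressed. Neither the exact test nor the fit of only the groups compared gives an interaction. The causes were not tested.

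Leaving out 1 library gave 0 to 1 members higher and 0 to 2 lower with DEX in *RVE8:GR*, 0 to 2 higher and 4 to 5 lower between the lines after DEX, 2 to 4 higher and 0 to 1 lower with DEX in *rve8*, 0 to 1 higher and 0 to 1 lower between the lines after mock treatment, 0 to 2 negative interactions, 0 to 2 RVE8-induced and 4 to 5 RVE8-repressed. Members with a mean of at least 1 CPM in every group numbered 36, and 35 to 36 without 1 library.

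Of 18 correlations between the deviations of same-numbered libraries, -0.0827 to 0.209, 3 were over 0.1. All 3 are between the third libraries of *rve8* + DEX, *RVE8:GR* + mock and *RVE8:GR* + DEX (0.125 to 0.209), and no number had every pair over 0.1, so the numbers were not taken as a pairing. With the replicate block, 5 members were lower between the lines after DEX (*CYP707A2* added) and no other member call changed. By edgeR's quasi-likelihood test with that block, *RD29A* with DEX in *RVE8:GR* (adjusted p = 0.0104) and the interaction of *KIN1* (0.0142) were lost, and *RD22* with DEX in *rve8* (0.00753) and *ABA1* between the lines after mock treatment (0.00757) passed.

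Over all models, edgeR's exact test called 471 lower with DEX in *RVE8:GR* where the quasi-likelihood test called 271, 508 against 313 lower with DEX in *rve8*, and 510 and 272 against 261 and 83 between the lines after mock treatment. DESeq2 called 454 and 217 there, and 89 positive and 349 negative interactions against 48 and 189. Without 1 library the RVE8-induced set held 260 to 589 models and the RVE8-repressed set 380 to 676, with 287 and 380 without the first library of *RVE8:GR* + DEX and 260 and 413 without the third. Among the members tested, those with few counts, such as *HAI2*, *NCED3* and *CYP707A4*, have intervals too wide to show small changes.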
